A study of Mus musculus with 4 samples.

Results

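A set of 10 regulators of mammary cell identity, chosen by name, was followed through droplet single-cell libraries: the ETS factors Elf5, Ehf and Elf3, the factors Gata3, Foxa1, Trp63, Sox9, Sox10 and Tbx3, and the receptor Kit. All 10 were listed among the 32285 genes of the count tables, and each had UMIs (unique molecular identifiers, 1 per captured RNA molecule) in every library. The 4 libraries were a wild-type control, wild-type HU, a Brca2mut/WT control and Brca2mut/WT HU, with 1 library per condition, and values below follow that order. The organoids were grown from mammary epithelium of virgin female mice, aged 9 to 11 months in the study's serial passage experiment. Brca2mut/WT mice carried 1 germline allele with a truncating Brca2 mutation and 1 wild-type allele, and the wild-type mice were littermates. In each passage the HU organoids received hydroxyurea, an inhibitor of ribonucleotide reductase, at 1 mM over 24 h and then recovered for 4 days, whereas control organoids were passaged without the drug. Frozen organoids of passage 0 and passage 4 were thawed and grown for 3 days before capture, but the labels do not say which passage a library holds. Each library is labelled as 2 replicates and carried 4 antibody tags without a key, so the cells of 1 tag are treated below as an unlabelled pool.

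The mammary epithelium has an outer basal layer, which can contract, and an inner luminal layer. Luminal cells that express the oestrogen and progesterone receptors (HR+) sense hormones, and those without the receptors (HR-) hold the progenitors of milk-producing cells. Elf5 drives the alveolar fate of HR- cells and Kit is a receptor tyrosine kinase of luminal progenitors. Foxa1 opens chromatin for the oestrogen receptor, Gata3 maintains luminal identity, and Trp63 encodes p63, which defines basal epithelium. Sox9 and Sox10 are linked to stem and progenitor states, and Tbx3 to HR+ luminal cells.

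Cells were assigned to lineages by gates on single genes, on the gene's UMIs scaled to 1000000 UMIs of the cell (CPM). Basal cells had at least 500 CPM of Krt14 and under 300 CPM of Areg. HR+ luminal cells had at least 300 CPM of Areg and under 300 CPM of Krt14, and HR- luminal cells under 300 CPM of both. Of 17360 cells kept, 2217 were basal, 14008 HR- luminal and 525 HR+ luminal. The other 610 fell in none of these gates, 109 of them with at least 500 CPM of Krt14 and 300 CPM of Areg. The cuts run through a continuum, with 429 basal cells at 500 to 1000 CPM of Krt14 and 1447 HR- luminal cells at 150 to 300, and with 99 HR+ luminal cells at 300 to 600 CPM of Areg. Markers that the gates did not use followed the lineages. The summed level of 10 basal markers was 3931 to 4422 CPM in basal cells and at most 146 CPM in the luminal lineages, and 10 HR- luminal markers summed to 38633 to 45496 CPM in HR- luminal cells. The milk protein gene Csn3 had a median over cells of 18650 CPM in the HR- luminal, 706 CPM in the basal and 648 CPM in the HR+ luminal lineage. The 10 HR+ markers summed to 5051 to 8043 CPM in HR+ luminal cells. In basal cells they summed to 1013 to 1207 CPM, above the 179 to 192 CPM of HR- luminal cells. Of the 10, 6 stayed under 10 CPM in basal cells, where the median over cells was 728 CPM for Ly6a and 0 CPM for Prlr. HR+ luminal cells also held 708 to 1803 CPM of 7 fibroblast markers. Of these, Dcn was the 1 marker over 10 CPM, and Col3a1, Lum and Pdgfrb had no UMI. The 5 mast cell markers, of a cell type known for Kit, were at 0 in basal and HR+ luminal cells. In the HR- luminal lineage they summed to at most 0.36 CPM.

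Short stretches upstream of annotated transcription starts are shown for Elf5, Foxa1 and Kit, since among the genes with a promoter in the reference table these separated the lineages most sharply, and a short motif of a factor class among the 10 genes was found there. RefSeq promoters (GRCm38.p6) were matched for 5 of the 10 genes, namely Elf5, Elf3, Gata3, Foxa1 and Kit. Both strands of the 250 bases before each start were searched for a core of ETS factors, which was spelled AGGAAG in this search. For GATA factors the letters searched were AGATAA instead. The FOX core was searched as the letters TGTTTAC, while the SOX core was searched as the letters ACAATG, and no matches overlapped. Capitals mark the match, read 5′ to 3′ on the strand of the gene. The Elf5 stretch at chr2:103411879-103411908 (plus strand) holds the SOX letters on the opposite strand, 207 bases before the start. The Foxa1 stretch at chr12:57546235-57546264 (minus strand) holds the FOX letters on the opposite strand, 141 bases before the start, and the Kit stretch at chr5:75574753-75574782 (plus strand) holds the ETS letters 222 bases before the first of its annotated starts.
Elf5: ctgatagctggcCATTGTggaggtgcggga
Foxa1: ttatactgctttGTAAACAaagtgagggcc
Kit: gagagtgctaggAGGAAGaggatccagggt
The Elf5 and Foxa1 stretches lie inside the longer gene models of GENCODE M21. Of all 32851 RefSeq windows, 29.5% held the ETS letters, 9.99% the GATA letters, 3.17% the FOX letters and 10.7% the SOX letters, and a match is a description and not a bound site. No match was found for Elf3, Gata3 or a further start of Elf5, which says only that these letters are not in those windows.

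Elf5, Kit, Sox10 and Ehf were highest in HR- luminal cells in all 4 libraries. UMIs were summed over the cells of a lineage in each library and tested with edgeR, with the library as a block (n = 4 libraries per lineage), and a gene was called at an adjusted p under 0.05 and at least 1.5-fold. The p-values measure the spread between these libraries only, and a sum cannot tell fewer expressing cells from less RNA per cell. The edgeR folds use scaling factors (TMM) that the printed CPM do not, so a fold can differ from the ratio of the CPM beside it. Between basal and HR- luminal cells, 39.5% of 13229 genes were called, 19.7% higher and 19.8% lower in basal cells, and of the 10 regulators 3 were higher, 6 lower and 1 not called. Between HR+ and HR- luminal cells, 42.8% of genes were called, 19.5% higher and 23.2% lower in HR+ cells, and 5 of the 10 were higher and 5 lower. Between HR+ luminal and basal cells, 33.2% were called, 15.0% higher and 18.2% lower in HR+ cells, with 4 of the 10 higher, 4 lower and 2 not called. The median log2 difference of the 10 genes was -0.95 for basal against HR- luminal cells (all genes, -0.01), -0.59 for HR+ against HR- luminal cells (-0.06) and -0.37 for HR+ luminal against basal cells (-0.04).

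Elf5 (ENSMUSG00000027186, GRCm38 chromosome 2, 103411688 to 103450989, plus strand) had 95.4, 125, 104 and 121 CPM in HR- luminal cells. Basal cells had 9.30, 14.9, 14.2 and 12.8 CPM and HR+ luminal cells 11.02, 7.71, 7.23 and 8.47 CPM. The lowest HR- luminal library thus stood far above every basal and HR+ library. Elf5 was 9.65-fold lower in basal than in HR- luminal cells (log2 -3.27 ± 0.12 SE, edgeR adjusted p = 2.02e-09) and 14.4-fold lower in HR+ luminal cells (log2 -3.85 ± 0.15 SE, adjusted p = 3.27e-09). Its levels in HR+ luminal and basal cells overlapped across libraries, and the difference between them (log2 -0.58 ± 0.18 SE, adjusted p = 0.0194) stayed under 1.5-fold, which it passed without the wild-type control library (log2 -0.89, adjusted p = 6.82e-04).

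Kit (ENSMUSG00000005672, chromosome 5, 75574916 to 75656722, plus strand) had the sharpest fall outside HR- luminal cells among the 10 genes. It stood at 91.5, 76.0, 104 and 86.7 CPM in HR- luminal cells, at 5.32, 6.16, 5.81 and 2.39 CPM in basal cells and at 7.69, 4.52, 2.17 and 3.85 CPM in HR+ luminal cells. Basal cells were 19.1-fold lower (log2 -4.26 ± 0.19 SE, edgeR adjusted p = 8.30e-09) and HR+ luminal cells 21.4-fold lower (log2 -4.42 ± 0.24 SE, adjusted p = 3.91e-08). Basal and HR+ luminal cells could not be separated (log2 -0.16 ± 0.34 SE, adjusted p = 0.715).

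Sox10 (ENSMUSG00000033006, chromosome 15, 79154908 to 79165240, minus strand), also a neural crest factor, shared this order. It had 151, 129, 151 and 142 CPM in HR- luminal cells, 30.2, 24.2, 35.8 and 50.4 CPM in basal cells and 24.9, 13.0, 17.0 and 13.5 CPM in HR+ luminal cells. The HR- luminal level was 4.62-fold above basal (log2 -2.21 ± 0.16 SE for basal minus HR-, edgeR adjusted p = 3.48e-07) and 9.39-fold above HR+ luminal cells (log2 -3.23 ± 0.20 SE, adjusted p = 9.04e-08). Markers of melanocytes and Schwann cells, which also express Sox10, summed to at most 11.01 CPM in any lineage. They ran in the same order as Sox10, with 10.4 to 11.01 CPM in HR- luminal, 5.90 to 7.73 CPM in basal and 3.99 to 5.01 CPM in HR+ luminal cells.

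Ehf (ENSMUSG00000012350, chromosome 2, 103263433 to 103303278, minus strand), an epithelial ETS factor that neighbours Elf5, was graded rather than restricted. HR- luminal cells had 80.6, 103, 105 and 109 CPM, basal cells 52.8, 62.0, 69.0 and 45.8 CPM and HR+ luminal cells 33.1, 32.2, 32.2 and 28.5 CPM, and no library of 1 lineage overlapped those of another. Ehf was 1.90-fold lower in basal (log2 -0.93 ± 0.10 SE, edgeR adjusted p = 9.05e-06) and 3.56-fold lower in HR+ luminal cells (log2 -1.83 ± 0.12 SE, adjusted p = 1.45e-07) than in HR- luminal cells.

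**Figure D1:**
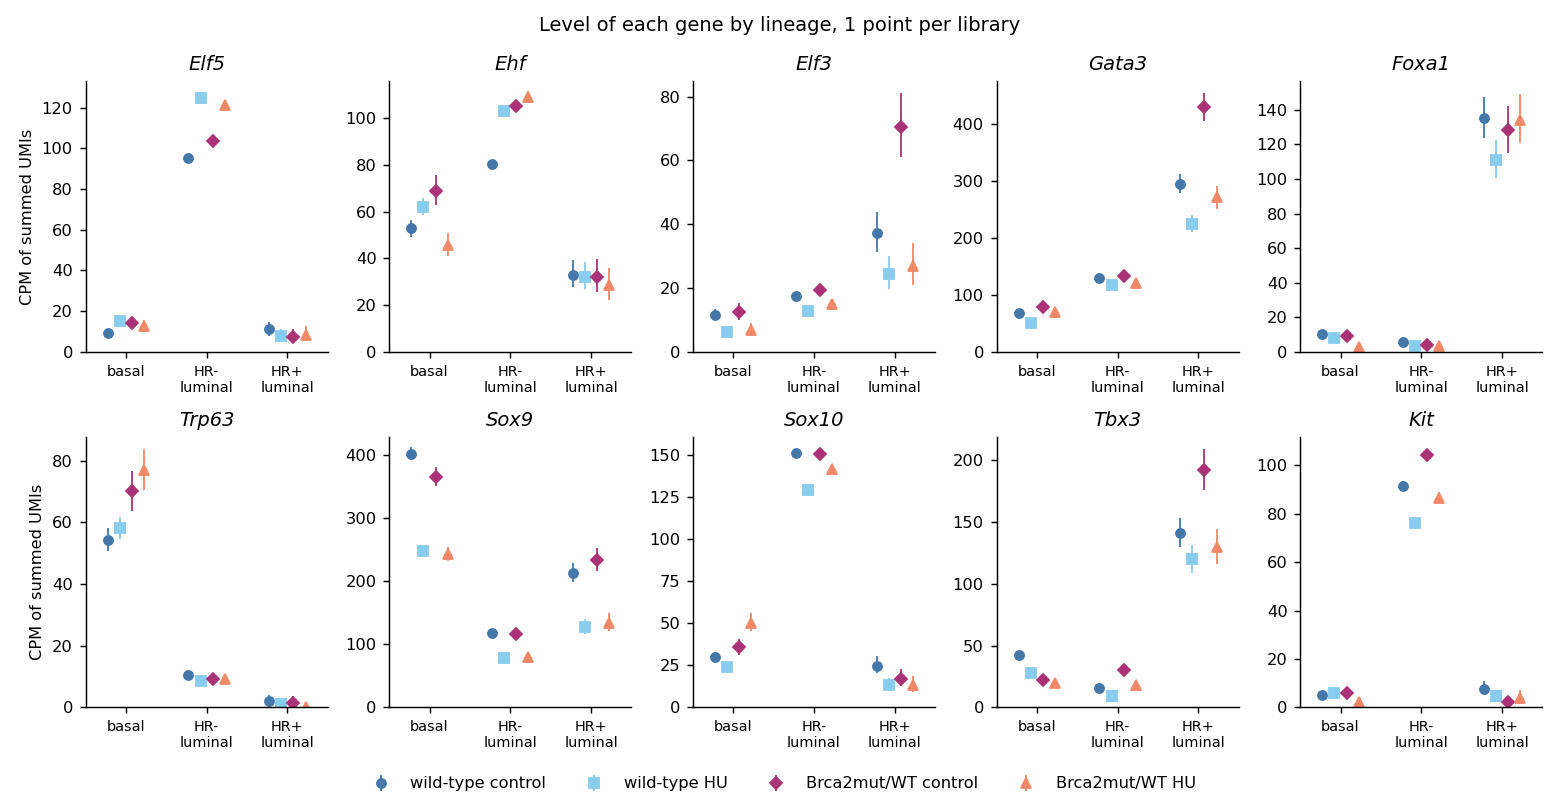
Level of each of the 10 genes (CPM of UMIs summed over the cells of a lineage, linear axis from 0) in basal, HR- luminal and HR+ luminal cells, with 1 point per library and exact Poisson 95% intervals that cover counting error only. Elf5, Ehf, Sox10 and Kit peak in HR- luminal cells, Foxa1, Tbx3, Gata3 and Elf3 in HR+ luminal cells, and Trp63 and Sox9 in basal cells, where the HU libraries of Sox9 lie at 248 and 243 CPM below the controls at 402 and 365.

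Foxa1, Tbx3, Gata3 and Elf3 peaked in HR+ luminal cells in every library. Foxa1 (ENSMUSG00000035451, chromosome 12, 57540628 to 57546916, minus strand) was nearly confined to them, with 135, 111, 128 and 134 CPM against 5.45, 3.63, 3.85 and 3.18 CPM in HR- luminal cells and 10.5, 7.78, 9.24 and 2.67 CPM in basal cells. This was 28.1-fold above HR- luminal cells (log2 4.81 ± 0.20 SE, edgeR adjusted p = 4.22e-09) and 16.1-fold above basal cells (log2 4.01 ± 0.21 SE, adjusted p = 7.20e-08). The basal level was called 1.75-fold above that of HR- luminal cells (log2 0.81 ± 0.21 SE, adjusted p = 0.00588), but the Brca2mut/WT HU library did not share this, and the call was lost with the wider cell filter (log2 0.28, adjusted p = 0.160) and with Krt5 and Prlr as gate genes (log2 0.55). The part of the HR+ markers in basal cells in this difference was not tested.

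Tbx3 (ENSMUSG00000018604, chromosome 5, 119670669 to 119684724, plus strand), a T-box repressor, had 141, 119.7, 192 and 129 CPM in HR+ luminal cells. HR- luminal cells had 15.4, 9.56, 29.9 and 18.3 CPM and basal cells 42.5, 27.8, 22.4 and 19.4 CPM, so that the basal and HR- ranges overlapped. Tbx3 was 7.26-fold higher in HR+ than in HR- luminal cells (log2 2.86 ± 0.26 SE, edgeR adjusted p = 2.40e-06) and 4.72-fold higher than in basal cells (log2 2.24 ± 0.27 SE, adjusted p = 3.81e-05). The difference of basal from HR- luminal cells (log2 0.62 ± 0.26 SE) missed the threshold with an adjusted p of 0.0555, and passed it without the Brca2mut/WT control library (log2 0.96, adjusted p = 0.00622) or the Brca2mut/WT HU library (log2 0.81, adjusted p = 0.0419). With the wider cell filter its direction turned (log2 -0.31, adjusted p = 0.343).

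Gata3 (ENSMUSG00000015619, chromosome 2, 9857078 to 9890034, minus strand) ran through both luminal lineages. It had 295, 225, 429.8 and 271 CPM in HR+ luminal cells, 129, 118, 134 and 121 CPM in HR- luminal cells and 68.8, 51.0, 79.1 and 70.6 CPM in basal cells, with no overlap between lineages. The HR+ level was 2.09-fold that of HR- luminal cells (log2 1.06 ± 0.11 SE, edgeR adjusted p = 6.22e-06), and the basal level was 2.07-fold below HR- luminal cells (log2 -1.05 ± 0.11 SE, adjusted p = 6.85e-06).

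Elf3 (ENSMUSG00000003051, chromosome 1, 135253575 to 135258568, minus strand), an epithelial ETS factor, went with HR+ luminal cells and not with Elf5 and Ehf. It had 37.2, 24.5, 70.5 and 26.96 CPM in HR+ luminal cells, 17.6, 12.8, 19.4 and 15.1 CPM in HR- luminal cells and 11.6, 6.27, 12.4 and 6.88 CPM in basal cells. It was 2.03-fold higher in HR+ than in HR- luminal cells (log2 1.02 ± 0.16 SE, edgeR adjusted p = 1.83e-04) and 1.96-fold lower in basal than in HR- luminal cells (log2 -0.97 ± 0.16 SE, adjusted p = 2.79e-04). The first of these calls fell under 1.5-fold with the wider cell filter (log2 0.51).

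Trp63 and Sox9 peaked in basal cells. Trp63 (ENSMUSG00000022510, chromosome 16, 25683763 to 25892102, plus strand) had 54.4, 58.1, 70.0 and 76.9 CPM in basal cells and 10.7, 8.64, 9.13 and 9.18 CPM in HR- luminal cells. In HR+ luminal cells it had 8, 4, 4 and 0 UMIs, or 2.05, 1.06 and 1.45 CPM in the first 3 libraries, and 0 UMIs in the last allows up to 1.16 CPM, taking 3 UMIs as the limit of a count of 0 (the exact 95% interval drawn for this library in the plot of levels ends at 1.42 CPM). Basal cells were 6.23-fold above HR- luminal cells (log2 2.64 ± 0.14 SE, edgeR adjusted p = 3.48e-08), and HR+ luminal cells were lower than HR- luminal cells (log2 -3.12 ± 0.36 SE, adjusted p = 1.43e-05).

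Sox9 (ENSMUSG00000000567, chromosome 11, 112782224 to 112787760, plus strand) was present in all lineages. It had 402, 248, 365 and 243 CPM in basal cells, 213, 128, 234 and 134 CPM in HR+ luminal cells and 117, 78.9, 117 and 80.1 CPM in HR- luminal cells. In each library the order was basal, HR+ luminal, HR- luminal. Basal cells were 2.90-fold above HR- luminal cells (log2 1.54 ± 0.06 SE, edgeR adjusted p = 4.67e-09), and HR+ luminal cells 1.56-fold above them (log2 0.64 ± 0.07 SE, adjusted p = 5.52e-06), a call that fell just under 1.5-fold when cells were thinned to equal depth (log2 0.57).

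**Figure D2:**
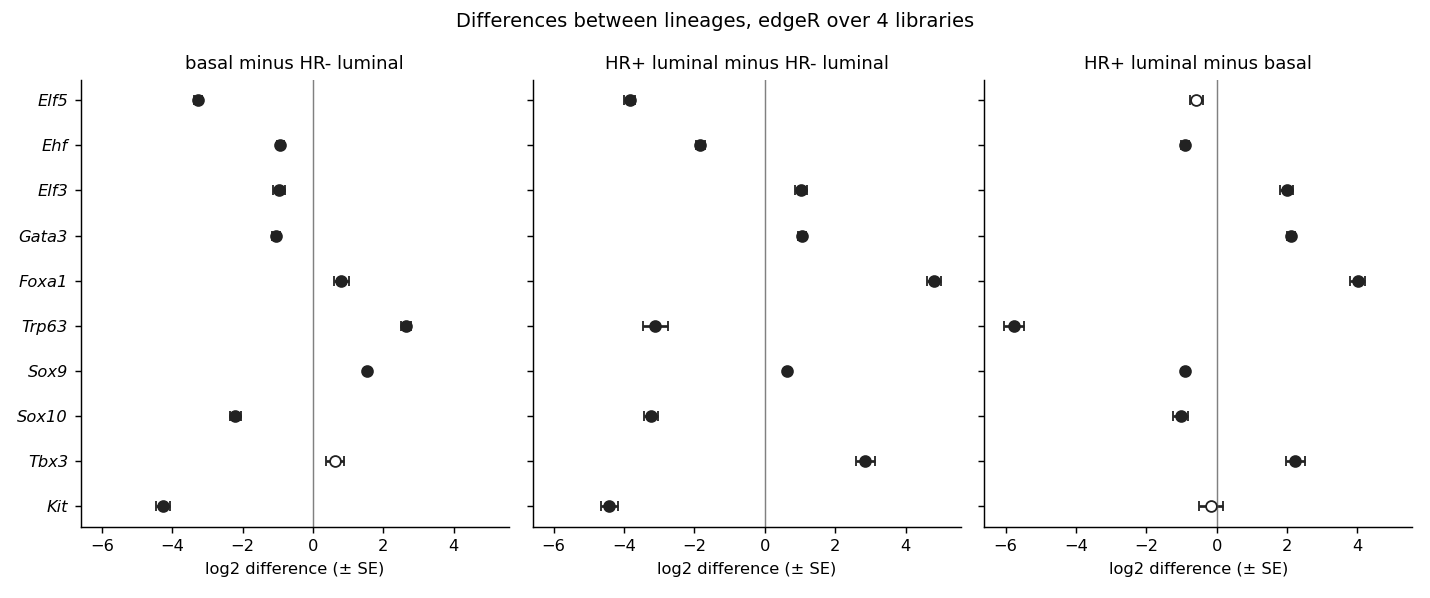
Log2 difference (± SE, edgeR over 4 libraries) of each gene between the lineages, with filled points for calls at an adjusted p under 0.05 and at least 1.5-fold. Kit (-4.26 and -4.42) and Elf5 (-3.27 and -3.85) lie far below 0 in both comparisons with HR- luminal cells, Foxa1 (4.81) and Tbx3 (2.86) far above 0 in HR+ luminal cells, and open points mark Tbx3 in the first panel and Elf5 and Kit in the third.

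The comparison of HR+ luminal with basal cells depended on the gate genes for 4 of the 10. With Krt5 and Prlr in place of Krt14 and Areg, the difference turned positive for Elf5 (log2 2.89), Kit (2.80), Sox10 (0.91) and Ehf (0.34). Of the HR- luminal cells of the first gates, 455 (3.25%) had at least 300 CPM of Prlr, beside 525 cells in the whole HR+ luminal lineage. The other 6 genes kept their direction between HR+ luminal and basal cells. The lineage comparisons come from the same fit, so the folds of Elf5, Kit, Sox10 and Ehf against HR- luminal cells also changed in size. This holds for basal cells, HR+ luminal cells or both. Their calls stayed, but the new sizes are not given here, so the folds above hold for the Krt14 and Areg gates.

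Other regulators of the mammary epithelium were followed beside the 10 genes, in 4 lists. Of all genes, 19.7% were called higher and 19.8% lower in basal than in HR- luminal cells. In HR+ against HR- luminal cells the shares were 19.5% and 23.2%, and these shares hold for each list below. Of 22 other luminal regulators, 21 were tested, and in basal against HR- luminal cells 4 were higher and 9 lower, with a median log2 difference of -0.51. Xbp1, a factor of secretory cells, had 382 to 517 CPM in HR- luminal and 77.1 to 119 CPM in basal cells (log2 -2.32 ± 0.09 SE), and Hey1, a Notch target, had 95.7 to 123 against 21.8 to 34.0 CPM (log2 -2.25 ± 0.10 SE). Klf5 rose the other way, with 98.5 to 152 CPM in basal and 10.9 to 14.4 CPM in HR- luminal cells (log2 3.06 ± 0.10 SE), as did Runx1 (log2 2.21 ± 0.07 SE). In HR+ against HR- luminal cells 8 were higher and 8 lower (median -0.05). Spdef, an ETS factor of secretory epithelium, had 10.1 to 15.4 CPM in HR+ and 0.4 to 1.1 CPM in HR- luminal cells (log2 4.15 ± 0.32 SE), and Tfap2c had 22.1 to 40.3 CPM against 220 to 294 CPM (log2 -3.34 ± 0.17 SE).

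Of 18 other basal regulators, 15 were tested. In basal against HR- luminal cells 13 were higher and 0 lower (all genes, 19.7% and 19.8%), with a median log2 difference of 1.80. Id4, an inhibitor of helix-loop-helix factors that is also in the basal marker list, had 254 to 428 CPM in basal and 5.9 to 9.1 CPM in HR- luminal cells (log2 5.28 ± 0.20 SE), and Bcl11b had 49.3 to 60.9 against 1.0 to 1.6 CPM (log2 5.32 ± 0.14 SE). In HR+ against HR- luminal cells 4 of the 15 were higher and 5 lower (median -0.38).

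Among 20 other ETS family members, 16 were tested. In basal against HR- luminal cells 5 were higher and 2 lower (median 0.18), beside 19.7% and 19.8% of all genes. Both that fell belonged to the PEA3 group: Etv1 had 78.8 to 111 CPM in HR- luminal and 5.1 to 10.0 CPM in basal cells (log2 -3.73 ± 0.16 SE), and Etv5 had 131 to 153 against 46.3 to 50.9 CPM (log2 -1.70 ± 0.09 SE). They were lower in HR+ luminal cells too (log2 -4.30 ± 0.20 and -2.79 ± 0.11 SE), where 5 ETS members, Spdef among them, were higher and 4 lower (median -0.004).

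All 20 genes of Kit ligand and signalling were tested. In basal against HR- luminal cells 2 were higher and 4 lower (median -0.10), beside 19.7% and 19.8% of all genes. In HR+ against HR- luminal cells 5 were higher and 6 lower (median -0.02), beside 19.5% and 23.2% of all genes. Kitl, the ligand of Kit, was made by every lineage. It ranged from 184 to 237 CPM in HR+ luminal cells, against 92.1 to 113 CPM for the HR- luminal lineage and 74.1 to 112 CPM for the basal lineage, and was higher in HR+ than in HR- luminal cells (log2 0.84 ± 0.12 SE). Cblb, a ubiquitin ligase that dampens receptor signalling, was lowest where Kit was highest, with 4.5 to 6.6 CPM in HR- luminal, 26.9 to 32.2 CPM in basal and 21.0 to 33.6 CPM in HR+ luminal cells (log2 2.33 ± 0.10 SE for basal minus HR- luminal).

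The genes most like each of the 10 were sought among 7267 genes over the 12 sums of 4 libraries and 3 lineages, by Pearson's r of log2(CPM + 1), as a description in which the sums of a library share their depth and batch. The closest were Pradc1 for Elf5 (r = 0.993), Lbh for Ehf (r = 0.976), Adra2c for Kit (r = 0.990) and 4931406P16Rik for Sox10 (r = 0.994). Ffar4 was closest to Foxa1 (r = 0.992), with 61.2 to 92.9 CPM in the HR+ lineage and at most 3.73 CPM elsewhere, followed by Podxl (r = 0.991) and the homeobox gene Msx2 (r = 0.991). Diaph1 was closest to Tbx3 (r = 0.974), Ttc36 to Gata3 (r = 0.984) and Hdac5 to Elf3 (r = 0.990). Thbs1 was closest to Trp63 (r = 0.990), with 307 to 321 CPM in basal cells, and Acp5 to Sox9 (r = 0.958), the lowest of these values. Gata3 was itself among the 3 genes closest to Elf3 (r = 0.961).

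The share of cells with a UMI gave the same top lineage at equal depth. Each cell with at least 5000 UMIs was thinned to 5000, which left 16191 cells, and all 10 genes had the same top lineage in every library. An Elf5 UMI was found in 34.0% to 42.2% of HR- luminal cells (74.1% to 79.9% unthinned), and in 3.30% to 6.59% of basal and 2.22% to 6.85% of HR+ luminal cells. Kit was found in 28.1% to 33.2% of HR- luminal cells and in 0.35% to 4.44% of the others. These low shares overlapped between basal and HR+ luminal cells and are not read as expression, since free RNA can give UMIs in any droplet. Foxa1 was found in 40.7% to 54.4% of HR+ luminal cells and at most 5.02% of others, and Tbx3 in 38.5% to 53.8% of HR+ luminal and 3.93% to 11.4% of HR- luminal cells. Trp63 was found in 23.1% to 32.6% of basal, 4.47% to 5.29% of HR- luminal and at most 0.96% of HR+ luminal cells. The HR+ shares of Trp63 rest on at most 1 cell per library. Their 95% intervals overlapped those of HR- luminal cells in wild-type HU and in both Brca2mut/WT libraries.

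**Figure D3:**
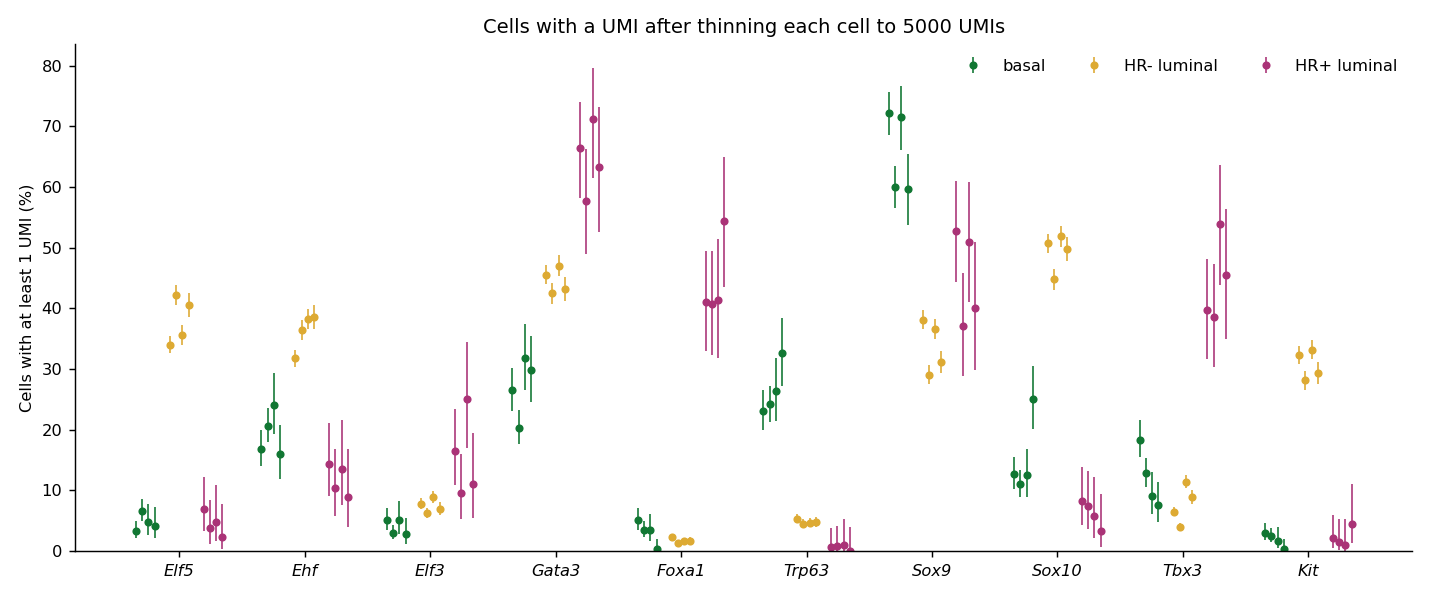
Share of cells with at least 1 UMI of each gene (percent) after thinning each cell to 5000 UMIs, by lineage, with 1 point per library and exact Clopper-Pearson 95% intervals. Sox9 reaches 59.7% to 72.2% of basal cells and still 29.0% to 38.1% of HR- luminal cells, whereas Kit and Elf5 stay low outside HR- luminal cells.

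Within HR- luminal cells, Elf5, Kit and Tbx3 were compared between cells with and without a UMI of Foxa1 or Trp63. Among the thinned cells, 41 to 95 per library had a Foxa1 UMI, and 18.9%, 12.2%, 18.5% and 30.2% of these had an Elf5 UMI, against 34.4%, 42.5%, 35.9% and 40.7% of cells without Foxa1. Tbx3 went the other way, with 23.2%, 12.2%, 29.6% and 37.2% of cells with Foxa1 against 6.04%, 3.83%, 11.1% and 8.33% of those without. Cells with a Trp63 UMI (120 to 216 per library) had Kit in 17.6%, 14.1%, 15.6% and 10.0%, against 33.2%, 28.8%, 34.1% and 30.3% of cells without it. The other pairs of these genes were lower too, as the share with minus the share without, in percentage points over the libraries. Elf5 differed by -25.1 to -12.1 with Trp63, Kit by -16.9 to -1.31 with Foxa1 and Tbx3 by -9.21 to -0.60 with Trp63. Of the remaining members, Sox9 was higher, by 6.07 to 12.7 with Foxa1 and 2.33 to 12.7 with Trp63. Sox10 differed by -33.0 to -5.67 with Foxa1 and by -2.65 to 2.87 with Trp63, and the rest are not given here. All of these are shares of sparse counts, given as a description. A Foxa1 UMI was found in only 1.23% to 2.33% of thinned HR- luminal cells, a level that free RNA can also give. Foxa1 and Tbx3 were both higher in the tag 2 than in the tag 1 pools, and 113 HR- luminal cells lay at 150 to 300 CPM of Areg. Trp63 peaked in basal cells, and 1447 HR- luminal cells lay at 150 to 300 CPM of the basal gate gene Krt14. The part of the pools or of the Areg and Krt14 cuts in these shares was not tested.

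Cycling HR- luminal cells were taken from 6 cell cycle markers that are no result themselves (1292 cells at 200 CPM or more, 9593 under 50 CPM). Against non-cycling cells, 3 of the 10 genes were called, 2 higher and 1 lower. Of 13831 genes, 22.0% were called, 11.7% higher and 10.4% lower in cycling cells. Trp63 was lower, with 6.18, 5.29, 4.77 and 5.66 CPM in cycling and 10.5, 8.29, 8.86 and 8.69 CPM in non-cycling cells (log2 -0.85 ± 0.11 SE, edgeR adjusted p = 2.42e-05), and no libraries overlapped. Foxa1 was higher in each library (12.96, 10.88, 4.90 and 7.55 against 4.99, 3.08, 4.13 and 2.52 CPM, log2 1.16 ± 0.20 SE, adjusted p = 3.22e-04), least in the Brca2mut/WT control. Tbx3 was also called (log2 0.60 ± 0.14 SE, adjusted p = 0.00291), but fell under 1.5-fold without the wild-type control library (log2 0.42) or the Brca2mut/WT HU library (log2 0.53), with cells of 1 tag (log2 0.55) and without a filter on low counts (log2 0.56), and had an adjusted p of 0.213 without the library block. Kit was lower in 3 of 4 libraries (62.5, 82.3 and 57.5 against 96.2, 106 and 90.7 CPM) and not in the wild-type HU library (82.0 against 76.1 CPM), and its difference (log2 -0.49 ± 0.10 SE, adjusted p = 8.75e-04) stayed under 1.5-fold. It passed without the wild-type HU library (log2 -0.65, adjusted p = 1.31e-06) and with a stricter cut for cycling (log2 -0.61, adjusted p = 1.98e-04). Sox9 (log2 -0.37 ± 0.05 SE, edgeR adjusted p = 1.89e-05) was lower and Ehf (log2 0.28 ± 0.04 SE, adjusted p = 7.24e-05) higher in all 4 libraries. Both stayed under 1.5-fold, as did Elf3 (log2 0.21), Gata3 (log2 0.12) and Sox10 (log2 -0.13). Elf5 did not differ by more than its spread (log2 -0.10 ± 0.05 SE, adjusted p = 0.131). The 6 cell cycle markers also differed between the tag pools of HR- luminal cells. They summed to 309, 133, 214 and 190 CPM in tag 2, against 122, 182, 189 and 120 CPM in tag 1. Foxa1 and Tbx3 were higher, and Trp63 lower, in the tag 2 than in the tag 1 pools. The block was the library and not the tag, and the part of the tag pools in these differences was not tested.

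The effects of HU and of genotype rest on 1 library per condition, so no test between conditions was made. A member was called at 1.5-fold or more with separate 95% Poisson intervals, among genes with at least 10 CPM in a library, and comparisons that share a library are not independent. Each comparison tested 7 to 9 members, and 0.351% to 4.51% of all genes were called per direction. Of 21 member folds called, 2 stayed at 1.5-fold or more in every alternative. They were Sox9 with HU in wild-type basal cells and Tbx3 between the genotypes in control basal cells. The basal tag pools of Tbx3 overlapped, however, with 18.5 to 58.1 CPM in the wild-type control and 14.9 to 29.8 CPM in the Brca2mut/WT control. Sox9 was lower after HU in every lineage and in both genotypes. In basal cells it went from 402 to 248 CPM in wild-type organoids (1.62-fold lower, log2 -0.70) and from 365 to 243 CPM in Brca2mut/WT organoids (log2 -0.59). In HR+ luminal cells it went from 213 to 128 CPM (log2 -0.73) and from 234 to 134 CPM (log2 -0.80). Both HR+ folds fell under 1.5-fold with the wider cell filter (log2 -0.50 and -0.42), the first also without tag 2 of wild-type HU (log2 -0.47) and the second with cells of 1 tag (log2 -0.50), and without tag 4 of Brca2mut/WT HU the second was log2 -1.25. In Brca2mut/WT basal cells the fold ran from log2 -0.66 to -0.54 over the alternatives and so crossed the 1.5-fold line. HR- luminal cells showed 117 against 78.9 CPM and 117 against 80.1 CPM, which at 1.49-fold and 1.46-fold stayed just under the 1.5-fold rule (log2 -0.57 and -0.55). Between the genotypes, Sox9 in HR- luminal cells differed by log2 -0.01 (-0.04 to 0.03) in control and 0.02 (-0.03 to 0.07) in HU libraries.

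The tag pools gave a view of the spread inside a library. In HR- luminal cells, Sox9 stood at 93.9 to 123 CPM in the 4 pools of the wild-type control and at 61.4 to 87.4 CPM in those of wild-type HU, and at 111 to 125 CPM in the Brca2mut/WT control against 60.4 to 87.5 CPM in Brca2mut/WT HU. All pools with HU were thus below all pools without it in both genotypes, which 4.95% and 1.14% of genes shared in the same direction. In basal cells of pools with 20 or more cells, Sox9 had 330 to 425 CPM against 212 to 261 CPM in wild-type organoids (4 pools per library). In Brca2mut/WT organoids it had 360 to 378 against 209 to 244 CPM, with only 3 pools per library. The share of all genes whose basal pools stand apart in this way was not computed, so these values are given as ranges only. In wild-type organoids the HR- luminal pools with HU were also higher for Elf5 (113 to 147 against 79.7 to 109 CPM) and Ehf (96.9 to 118 against 70.5 to 95.8 CPM), as for 3.09% of genes, and lower for Elf3 (7.12 to 15.1 against 15.5 to 31.7 CPM). In Brca2mut/WT organoids the pools also stood apart for Sox10, which was lower with HU (129 to 143 against 144 to 166 CPM). Its whole-library levels were close, at 142 against 151 CPM, and this fold was not called. In these organoids 1.14% of genes were lower and 1.47% higher in all pools. The Brca2mut/WT pools of Elf5 (91.3 to 127 against 87.97 to 133 CPM) and Ehf overlapped. Whether a tag marks a mouse, a culture or a passage is not given, so the pools were not tested. Between genotypes, the HR- luminal pools of each of the 10 genes overlapped, where 1.19% and 0.948% of genes stood higher and lower in all Brca2mut/WT pools without HU, and 3.48% and 0.482% with HU.

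**Figure D4:**
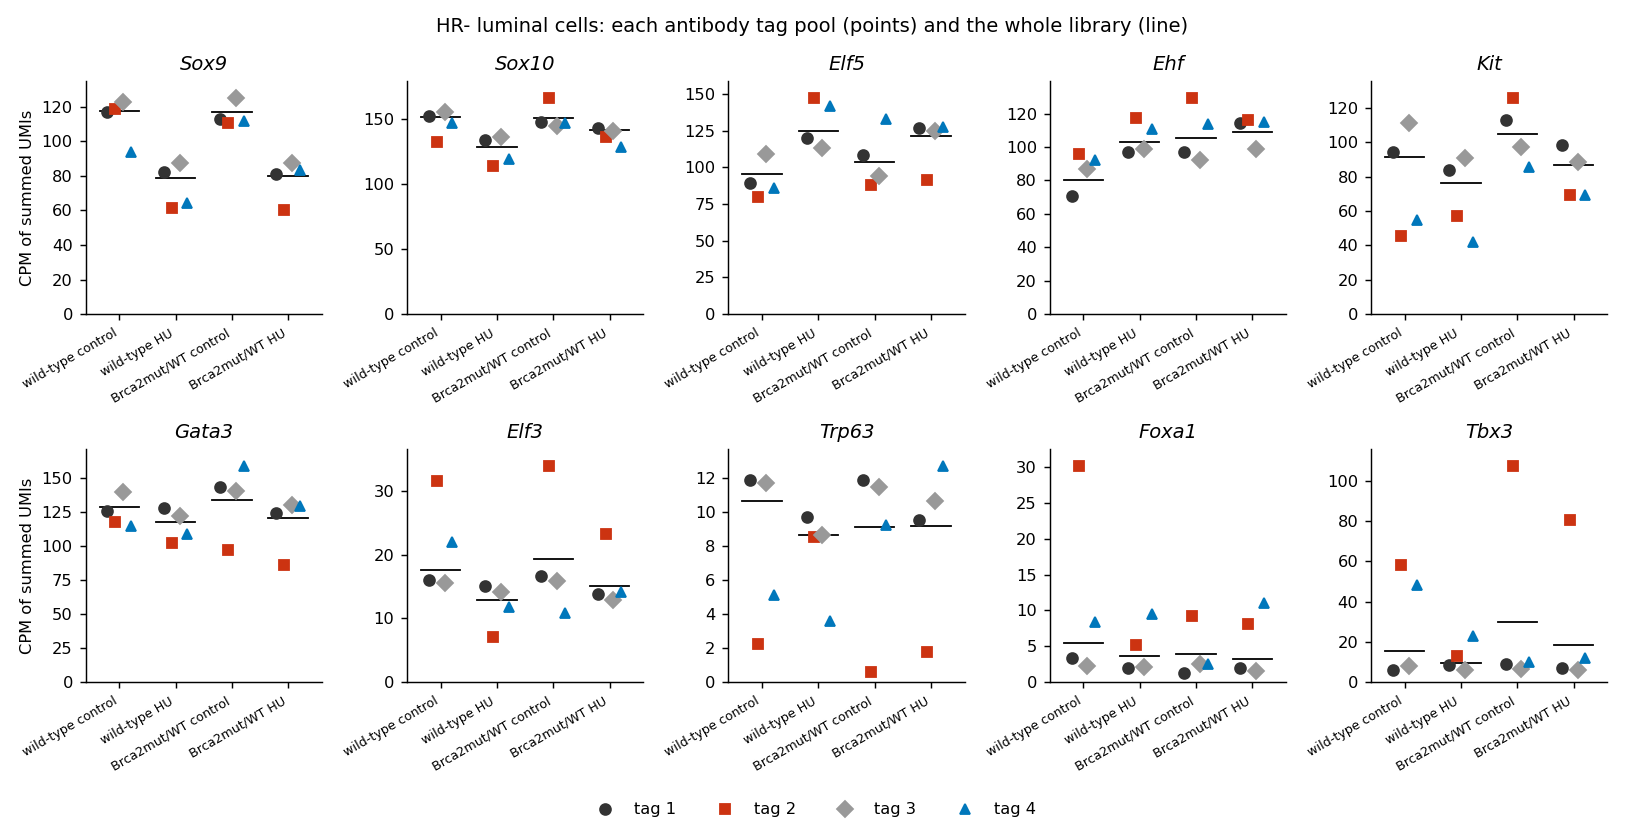
Levels of the 10 genes in HR- luminal cells (CPM, linear axis from 0), with 1 point for each antibody tag pool and a line for the whole library. All 4 Sox9 pools of each HU library lie below those of its control (87.4 against 93.9 CPM and 87.5 against 111 CPM at the nearest), whereas Tbx3 is spread within libraries, from 6.31 to 107 CPM in the Brca2mut/WT control.

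Tbx3 was the member called in HR- luminal cells in each of the 4 comparisons, and its pools were uneven. It was lower with HU in wild-type (9.56 against 15.4 CPM, log2 -0.68) and in Brca2mut/WT organoids (18.3 against 29.9 CPM, log2 -0.71), where 0.795% and 0.875% of genes were called lower (0.560% and 0.373% higher), and higher in Brca2mut/WT than in wild-type organoids in control (log2 0.96) and HU libraries (log2 0.93), where 0.636% and 0.587% were called higher (0.351% and 0.378% lower). The pool of tag 1 had 6.16 to 8.75 CPM and that of tag 3 had 5.74 to 7.88 CPM in the 4 libraries. The pool of tag 2 had 58.4, 13.1, 107 and 80.7 CPM and that of tag 4 had 48.4, 22.8, 10.0 and 11.8 CPM. Without tag 2 of the Brca2mut/WT control, the HU difference in Brca2mut/WT organoids turned to log2 0.97 and the genotype difference in controls to log2 -0.72, and without tag 2 of Brca2mut/WT HU the genotype difference with HU turned to log2 -0.26. In wild-type organoids the HU difference fell to log2 -0.22 without tag 4 of the control, to -0.42 without tag 2 of the control and to -0.36 without tag 3 of wild-type HU. In Brca2mut/WT organoids it fell to log2 -0.20 and -0.26 without tags 1 and 3 of the HU library and to -0.20 with the wider cell filter, and the genotype difference in controls fell to 0.44 without tag 1 of the wild-type control and to 0.56 with the wider filter.

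The same pools differed in other genes of HR- luminal cells. Foxa1 had 5.19 to 30.1 CPM in the tag 2 pools and 1.31 to 3.34 CPM in the tag 1 pools, and Trp63 0.61 to 8.52 CPM in tag 2 and 9.53 to 11.9 CPM in tag 1. Kit had 45.4 to 126 CPM in tag 2 and 41.9 to 85.5 CPM in tag 4, against 83.6 to 113 CPM in tag 1 and 88.6 to 111 CPM in tag 3. The summed HR- luminal markers were 24131 to 37188 CPM in tag 2 and 15882 to 31117 CPM in tag 4, against 40923 to 51120 CPM in tag 1 and 44718 to 46550 CPM in tag 3. The HR+ markers reached 781 CPM and the basal markers 555 CPM in tag 4 of Brca2mut/WT HU, a pool of 112 cells. The part of these marker differences in the values of Tbx3, Foxa1, Trp63 and Kit was not tested.

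In basal cells, HU in wild-type organoids went with higher Elf5 (9.30 to 14.9 CPM) and with lower Elf3 (11.6 to 6.27 CPM), Tbx3 (42.5 to 27.8 CPM) and Sox9, 1 higher and 3 lower of 9 members tested, where 3.18% and 3.81% of genes were called higher and lower. In Brca2mut/WT organoids Ehf (69.0 to 45.8 CPM), Elf3 (12.4 to 6.88 CPM) and Sox9 were lower, 3 of 8, where 1.73% of genes were called higher and 2.23% lower. Elf3 and Sox9 were thus called in both genotypes, and Elf5, Ehf and Tbx3 in 1 of them. Without tag 4 of the wild-type control, the wild-type differences were log2 0.12 for Elf5, -0.32 for Tbx3 and -1.53 for Elf3, and with Krt5 and Prlr as gate genes Elf5 (0.28) and Elf3 (-0.51) fell under 1.5-fold. With the wider cell filter, the Brca2mut/WT differences fell to -0.15 for Ehf and -0.35 for Elf3, and Ehf was also under 1.5-fold without any 1 tag of the HU library (log2 -0.58 to -0.45). Between the control libraries, Brca2mut/WT basal cells had higher Elf5 (14.2 against 9.30 CPM) and lower Tbx3 (22.4 against 42.5 CPM), where 2.12% and 1.78% of genes were called, and with HU they had higher Sox10 (50.4 against 24.2 CPM), where 4.51% of genes were called higher and 3.45% lower. The Elf5 difference was log2 0.05 without tag 4 of the wild-type control. Elf5 was found in only 3.30% to 6.59% of thinned basal cells per library, shares that free RNA can also give. The part of free RNA in the basal Elf5 differences was not tested. The Sox10 difference (log2 1.06) was 0.66 without tag 2 of wild-type HU and fell under 1.5-fold with the wider cell filter (0.38).

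In HR+ luminal cells, with 112 to 159 cells per library, HU went with lower Elf3 (37.2 to 24.5 CPM), Sox9 and Sox10 (24.9 to 13.0 CPM) in wild-type organoids, 3 of 8 members tested, where 4.23% of genes were called lower and 3.11% higher. In Brca2mut/WT organoids Elf3 (70.5 to 26.96 CPM, log2 -1.39), Gata3 (429.8 to 271 CPM, log2 -0.66) and Sox9 were lower, 3 of 7, where 3.30% of genes were called lower and 2.53% higher. The Brca2mut/WT control exceeded the wild-type control in Elf3 (log2 0.92), where 2.99% of genes were called higher and 2.65% lower, and with HU 0 of 7 members differed at this threshold between the genotypes (2.77% of genes higher and 2.31% lower). Without tag 4 of the Brca2mut/WT control, Elf3 differed by log2 -0.55 with HU and by 0.09 between the genotypes, both under 1.5-fold. Gata3 fell under it with the wider cell filter (log2 -0.43) and with Krt5 and Prlr as gate genes (-0.42). In wild-type organoids Elf3 (log2 -0.60) fell to -0.47 without tag 2 of the control, and Sox10 (log2 -0.93) to -0.54 with cells of 1 tag and -0.57 without tag 2 of wild-type HU. Foxa1 stayed between 111 and 135 CPM in all 4 libraries.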

How the data were processed

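The authors ran Cell Ranger on reads aligned to mm10 and deposited counts, whole UMIs per gene and cell, without normalization. Version 6.0.2 is given in the submitters' processing notes, and the headers of the files name another. The study's filter was applied (1000 to 6000 genes and under 5% mitochondrial UMIs), which kept 17360 of 33268 cells, with 418167072 gene UMIs. The study reports more cells after its filter than the deposited counts hold, so its set of cells was not reproduced. The wider cell filter, an alternative, asked for at least 1000 genes and under 10% mitochondrial UMIs. It set no upper limit on genes and kept 27645 cells. The libraries kept 82186830 to 126866429 UMIs and a median cell 24180 to 26893. No doublet caller was run. A tag was called at 200 UMIs or more. Of the cells kept, 14934 had 1 tag, 2234 had no tag and 192 had more than 1. The tag pools, and the alternative with cells of 1 tag, left out both the cells without a tag and those with more than 1. Among HR+ luminal cells, 30.1% of the Brca2mut/WT control and 49.1% of Brca2mut/WT HU had no tag. In the deposited counts 129 barcodes occurred in more than 1 library.

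UMIs were summed per library and lineage, and the 12 sums were tested with edgeR 4.0.16 in R 4.3.3 (quasi-likelihood test, TMM, filterByExpr, library as a block, Benjamini-Hochberg over all genes tested), which was tested on simulated data. DESeq2 1.42.0, other gates, filters, depths and scalings were alternatives. Intervals are exact Poisson or Clopper-Pearson 95% intervals and cover counting error only. All 10 genes are named, with the 3 genes most like each of them (the first is printed, and others where described) and, from each list of other regulators, called genes with the largest changes. The genes and lists were chosen with earlier results of these data known. Tables were made with Python 3.11.15. Gene positions are from GENCODE M21.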

Additional observations from a re-analysis of the deposited data

Results flagged for a closer look

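Among 40 sets of 4 library ratios, 1 stood apart: the log2 ratio of Foxa1 in HR+ luminal over basal cells was 5.21 in the Brca2mut/WT HU library, against 3.56 to 3.68 in the others, with a gap to the nearest library above Dixon's limit for 4 values. That library's basal sum held 2.67 CPM of Foxa1.

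Among 40 sets of 4 tag pools in HR- luminal cells, 9 had a pool that stood apart by the same limit. The sets share the same pools, so this count cannot be set against a rate for independent sets. Tbx3 in tag 2 stood at 107 CPM in the Brca2mut/WT control and at 80.7 CPM in Brca2mut/WT HU. In the Brca2mut/WT control, tag 2 also stood apart for Foxa1 (9.19 CPM) and Sox10 (166 CPM), and tag 3 for Sox9 (125 CPM). In Brca2mut/WT HU, tag 2 stood apart for Elf5 (91.3 CPM), Elf3 (23.3 CPM) and Gata3 (86.0 CPM), and tag 3 for Ehf (98.7 CPM). No tag pool set of the wild-type libraries stood apart.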

How the results depend on the processing

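The log2 differences of the 10 genes between lineages or cycling states were recomputed 510 times. Of these, 486 kept their side of the threshold, 9 newly passed it, 11 no longer passed it and 4 reversed. A reversal was counted only where the difference was called in the main or the other setting. A turn of direction without a call is thus among the 486, as for Tbx3 in basal against HR- luminal cells with the wider cell filter (log2 -0.31). All 4 reversals were for HR+ luminal against basal cells with Krt5 and Prlr as gate genes: Elf5 2.89, Ehf 0.34, Sox10 0.91 and Kit 2.80. With these gates 3736 genes were called between HR+ and HR- luminal cells (5661 otherwise), and 2915 between HR+ luminal and basal cells with every cell thinned to 5000 UMIs (4390 otherwise), where fewer UMIs were left. The other 49 counts stayed within 1.5 times. Without a filter on low counts the median of all genes shifted to -0.17 for basal and -0.39 for HR+ against HR- luminal cells. Between libraries, 0.351% to 4.51% of all genes were called per comparison and direction. Of the 10 genes, 21 folds were called there, of which 19 fell under 1.5-fold in some alternative. At 2-fold 2 were called, and 18 to 22 with 1 tag pool left out. Of 493 recomputed folds 3 reversed, all for Tbx3 in HR- luminal cells: 0.97 and -0.72 without tag 2 of the Brca2mut/WT control, and -0.26 without tag 2 of Brca2mut/WT HU. With each tag pool left out, these 3 folds ran from -1.90 to 0.97 (HU in Brca2mut/WT), from -0.72 to 1.42 (genotype, control) and from -0.26 to 1.44 (genotype, HU). The folds of Sox9 in HR- luminal cells, in alternatives chosen after seeing the data, ran from -0.61 to -0.54 in wild-type and from -0.57 to -0.51 in Brca2mut/WT organoids. No paired analysis was possible because the conditions share fewer than 2 replicate numbers, each having 1 library. The lineage and cycling tests compare sums within libraries, and a fit of HU with genotype as a block was not run. Depth limits Trp63 and Kit in HR+ luminal cells, with at most 8 UMIs of Trp63 in a library.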
